A study of Mus musculus with 9 samples.

Results

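The nuclear factor I genes Nfia, Nfib, Nfic and Nfix were described in cultured beige adipocytes of 3 mouse genotypes. They were taken by symbol and are 4 of the 24013 gene symbols in the expression values, and all 4 were found in every library. Poly(A) RNA was sequenced with a strand-specific kit from adipocytes grown out of the stromal vascular fraction of inguinal fat, the subcutaneous depot whose precursors can form UCP1-expressing beige cells. The groups were F1 offspring, 129X1/SvJ mice (129), which the series calls resistant to obesity, and C57BL6/J mice (B6), which it calls prone to obesity, with 3 libraries each. All cells had a 48 hour induction with 0.5 mM isobutylmethylxanthine, 125 nM indomethacin and 1 µM dexamethasone. Insulin (850 nM), T3 (1 nM), rosiglitazone (1 µM) and 10% serum were present in that step and afterwards, and all libraries were labelled day 7. Rosiglitazone is an agonist of PPARG, so no group shows the cells without that drug. The maternal strain of the F1 is not in the labels, and neither is the origin of replicate libraries, which may or may not be different mice or dishes. The p-values therefore measure only the spread between these libraries.

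Nuclear factor I proteins bind DNA as dimers of any of the 4 family members, through a conserved domain at the start of the protein. They recognise the palindrome TTGGC, 5 bases of any kind, GCCAA, and more weakly a single arm of it. In mouse brown adipocytes NFIA is known to bind enhancers together with PPARG and to help activate Ucp1 and other brown fat genes, and it is the factor named in the title of the series. The other members are best known from other mouse tissues, NFIB from lung and brain, NFIC from tooth roots, and NFIX from muscle and blood stem cells.

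The 4 genes are distinct in sequence, which bears on whether reads of one can be counted for another. Each has a coding exon of 532 bases at the start of the DNA-binding domain, and in the GENCODE annotation of build GRCm38 this exon was 75.8% (Nfia and Nfic) to 82.0% (Nfic and Nfix) identical between pairs. All 4 genes had the same base at 351 of the 532 positions, or 66.0%. The stretch of 90 bases with the most shared positions, bases 53 to 142 of the exon, is shown because it is where the family is most alike. Letters are 5′ to 3′ on the coding strand, and capitals mark the 22 positions where the 4 genes are not all the same. It lies at chr4:97783134-97783223 (plus strand) in Nfia, chr4:82498628-82498717 (minus) in Nfib, chr10:81420657-81420746 (minus) in Nfic and chr8:84772174-84772263 (minus) in Nfix.
Nfia: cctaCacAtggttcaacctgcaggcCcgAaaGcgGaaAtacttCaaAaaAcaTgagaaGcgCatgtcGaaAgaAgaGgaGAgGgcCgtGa
Nfib: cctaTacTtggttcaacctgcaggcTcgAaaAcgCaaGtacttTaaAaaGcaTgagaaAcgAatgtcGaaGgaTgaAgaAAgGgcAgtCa
Nfic: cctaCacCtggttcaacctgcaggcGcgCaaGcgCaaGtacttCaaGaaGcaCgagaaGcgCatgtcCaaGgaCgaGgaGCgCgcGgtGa
Nfix: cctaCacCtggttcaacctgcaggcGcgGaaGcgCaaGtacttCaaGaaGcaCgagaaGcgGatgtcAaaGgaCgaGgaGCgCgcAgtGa
Of the 22, 21 stand in steps of 3 bases, the length of a codon. Over the longest annotated transcript of each gene with this exon, the longest run shared by any pair was 32 bases (Nfic and Nfix), and no pair shared a run of 50 bases.

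In the deposited values, which used build mm9, Nfia lay at chr4:97248634-97785567 on the plus strand, with 12 exons of 9643 bases in all. Nfib lay at chr4:81936077-82151683 (minus, 12 exons, 9241 bases), Nfic at chr10:80858936-80889918 (minus, 10 exons, 6295 bases) and Nfix at chr8:87228611-87324237 (minus, 12 exons, 6790 bases). The last exon, which is mainly 3′ untranslated, made up 79.4% of the summed exon length in Nfia, 71.8% in Nfib, 77.5% in Nfic and 58.4% in Nfix. Levels are therefore mostly levels of the ends of these transcripts, and isoforms that differ in the coding exons were not resolved. E130114P18Rik overlaps Nfia on the other strand, but its highest RPKM in any library was 0.121. Lyl1 reaches into the end of Nfix, and Mir1191b lies within Nfic. Lyl1 did not pass 0.145 RPKM and Mir1191b did not pass 1.92 RPKM in any library.

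Depth was 39686986 to 53410947 assigned reads in F1, 23710908 to 28473083 in 129 and 19130022 to 26931438 in B6, so every F1 library was deeper than every parental one. Each NFI gene had 1415 to 7695 reads per library, for which read counting alone gives a coefficient of variation of 1.14% to 2.66%. The adipocyte genes Fabp4 (21330 to 32248 RPKM), Adipoq (1259 to 1587), Plin1 (417 to 504) and Pparg (89.7 to 117) were high in all 9 libraries. Of 9 muscle markers, Myod1, Myf5, Myf6, Ckm and Mstn were at 0 in all of them, and 1 averaged 1 RPKM or more. The 9 summed to 2.94 to 3.57 RPKM in F1, 3.29 to 4.08 in 129 and 1.93 to 3.54 in B6. Summed RPKM of 11 progenitor and fibroblast markers was 1275 to 1370 in F1, 1702 to 1814 in 129 and 1411 to 1623 in B6. For 10 smooth muscle markers it was 127 to 133 in F1, 148 to 158 in 129 and 164 to 179 in B6. For 12 macrophage markers it was 43.7 to 64.6 in F1, 23.2 to 51.9 in 129 and 50.7 to 63.4 in B6, and for 9 endothelial markers 11.4 to 12.2 in F1, 10.9 to 11.1 in 129 and 14.1 to 17.2 in B6. Mast cell and lymphocyte markers, of which 2 of 9 averaged 1 RPKM or more and Tpsb2 was at 0, summed to 25.7 to 32.1 in F1, 54.3 to 62.9 in 129 and 2.55 to 2.96 in B6. The 2 tested markers of this list went opposite ways in 129 minus B6, 1 called higher and 1 lower, so the sum does not speak for the list. For 8 epithelial and mesothelial markers, of which 1 averaged 1 RPKM or more, the sum was 15.6 to 18.2 in F1, 15.7 to 18.04 in 129 and 7.92 to 9.11 in B6. For 7 Schwann cell and neuron markers, of which 3 averaged 1 RPKM or more, it was 6.89 to 7.28 in F1, 6.36 to 6.89 in 129 and 9.30 to 13.1 in B6. The 3 tested markers of this list also split in 129 minus B6, 1 called higher and 1 lower, with a median log2 fold change of 0.13. This sum does not speak for its list either. The part of these cells in the differences between B6 and the other groups was not tested. In RNA of mixed cells, fewer cells of a type and less RNA per cell cannot be told apart.

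Levels are given in RPKM (reads per 1000000 assigned reads and per kilobase of all exons together), which corrects for summed exon length but not for other differences between genes. All 9 libraries had the same order, with Nfix highest, then Nfic, Nfib and Nfia. Nfix exceeded Nfic 1.45-fold on average (1.33-fold to 1.63-fold over libraries), Nfic exceeded Nfib 1.63-fold and Nfib exceeded Nfia 1.31-fold. Each of these 3 steps held in 9 of 9 libraries (exact two-sided sign-flip permutation p = 0.00391, the smallest that 9 libraries allow, and 0.00391 after Benjamini-Hochberg adjustment over 3 steps). Among the 11542 genes tested, Nfix stood between percentiles 70.5 and 79.3 of RPKM, Nfic between 62.6 and 68.6, Nfib between 49.5 and 54.4 and Nfia between 40.0 and 46.6. The factor named in the title thus had the lowest RPKM of the family. The p-value of the order does not measure a bias that all libraries share. The order was itself taken from the mean RPKM of these same 9 libraries, so the test is no independent support for it. How many other pairs of genes keep 1 order in all 9 libraries, which span 3 genotypes, was not counted. GC content, for which RPKM does not correct, was 57.1% in Nfix, 57.4% in Nfic, 43.3% in Nfib and 42.7% in Nfia. Over all 9 libraries the coefficient of variation was 11.5% for Nfix, 7.33% for Nfia, 7.27% for Nfic and 6.03% for Nfib.

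**Figure D1:**
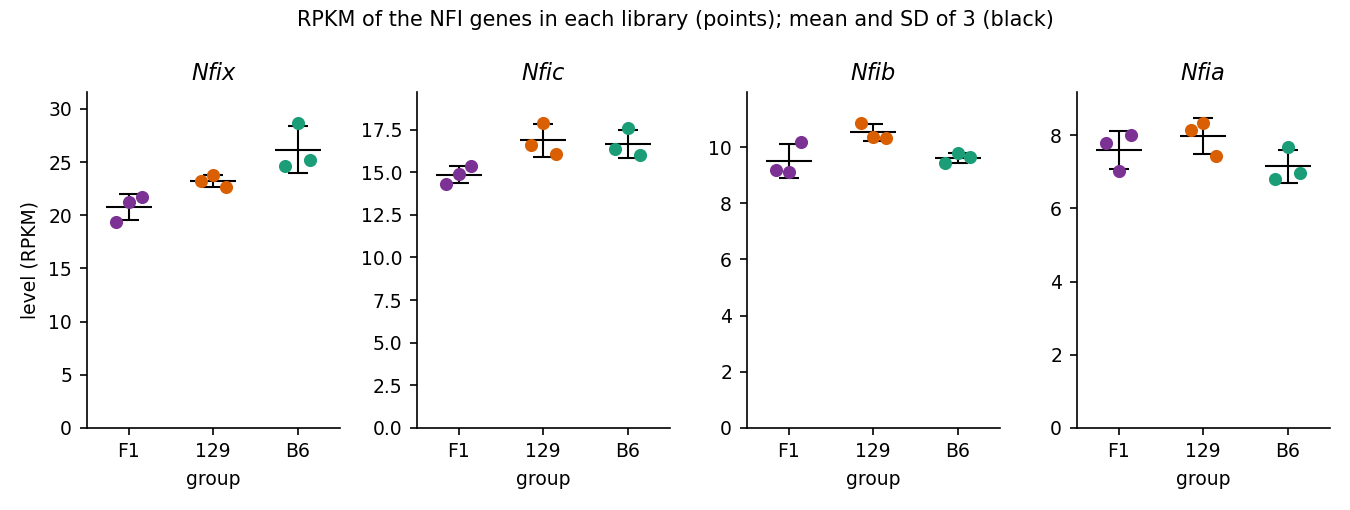
RPKM of each NFI gene in the 3 F1, 3 129 and 3 B6 libraries (points), with the mean and SD of 3 in black and a separate axis from 0 for each gene. For Nfix (19.3 to 21.7 in F1) and Nfic (14.3 to 15.4 in F1) all F1 points lie below all 6 parental points, whereas those of Nfia overlap.

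F1 adipocytes had less Nfix RNA than B6 and less Nfic RNA than either parent, whereas the F1 libraries of Nfia lay within the parental range and those of Nfib overlapped B6. Nfix fell to 0.794 of its B6 level in F1, and Nfix and Nfic both fell below the mid-parent value, which averages both parental log2 means. F1 was set against each parent and the mid-parent in the same limma fit, so these comparisons share the F1 libraries, and all adjusted p-values are limma's over 11542 genes. In F1 minus B6, 2 of the 4 NFI genes passed an adjusted p of 0.05, both lower. Of all genes tested, 31.2% passed in either direction, 20.2% as lower and 11.0% as higher.

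Nfix had 19.3, 21.2 and 21.7 RPKM in the F1 libraries, 23.2, 23.8 and 22.7 in 129, and 24.6, 28.7 and 25.2 in B6. The 3 groups did not overlap, with F1 lowest and B6 highest. The share of all genes with 3 groups apart was not computed. The mean was 20.8 ± 1.25 RPKM in F1, 23.2 ± 0.531 in 129 and 26.2 ± 2.23 in B6 (SD, n = 3 each). On the log2(RPKM + 1) scale, F1 minus B6 was -0.32 (SE 0.06, 95% interval -0.46 to -0.18, adjusted p = 0.00318). F1 minus mid-parent was -0.24 (SE 0.05, adjusted p = 0.0101), a mean at 0.841 of the parental mean. F1 minus 129 was -0.16 (SE 0.06, 95% interval -0.29 to -0.02) and did not pass (adjusted p = 0.0882). The fall against B6 passed in all 18 alternative analyses, with an adjusted p of 0.00102 to 0.0127. The fall against the mid-parent passed in 16 of 17, the exception being the fit without F1 replicate 1, the lowest library (-0.19, adjusted p = 0.0506). F1 minus 129 passed without B6 replicate 2 (adjusted p = 0.0318) and when only those 2 groups were fitted (adjusted p = 0.0469).

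Nfic had 14.3, 14.9 and 15.4 RPKM in the F1 libraries, 16.6, 17.9 and 16.1 in 129, and 16.3, 17.6 and 16.0 in B6. The parents overlapped, and all F1 libraries lay below all 6 parental ones. The mean was 14.9 ± 0.520 RPKM in F1, 16.9 ± 0.952 in 129 and 16.7 ± 0.835 in B6 (SD, n = 3 each). F1 minus 129 was -0.17 (SE 0.05, adjusted p = 0.0340), where 27.7% of all genes passed and 15.7% passed as lower, and Nfic was the 1 NFI gene to pass. F1 minus B6 was -0.15 (SE 0.05, adjusted p = 0.0471) and F1 minus mid-parent was -0.16 (SE 0.05, adjusted p = 0.0269). More settings ended these calls than those of Nfix. The call against B6 was lost on leaving out any of B6 replicates 1 and 2, 129 replicates 1 and 3 and the 3 F1 replicates (adjusted p = 0.0509 to 0.130), and with median-of-ratios rescaling (adjusted p = 0.140). The call against 129 was lost without 129 replicate 1 or 2 or F1 replicate 1 or 2 (adjusted p = 0.0706 to 0.124). The call against the mid-parent was lost without F1 replicate 1 (adjusted p = 0.103) or 2 (adjusted p = 0.0719), and with rescaling (adjusted p = 0.0583).

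Nfix and Nfic were the 2 of 4 members called in F1 minus mid-parent, where 23.2% of all genes passed and 14.8% passed as lower. They were the 2 of 4 without overlap between F1 and B6, and with Nfib the 3 of 4 without overlap between F1 and 129, where 44.2% and 44.5% of all genes had none. They were also the 2 of 4 whose F1 libraries all lay below all 6 parental libraries, a pattern that 9.70% of all genes tested had. By base composition, Nfic (57.4% GC) and Nfix (57.1%) belonged to the quintile of genes richest in GC, and Nfia (42.7%) and Nfib (43.3%) to the poorest. In F1 minus mid-parent, 10.1%, 15.4%, 16.8%, 16.4% and 15.5% of genes were called lower, from the poorest to the richest quintile. The medians, in the same order, were -0.02, -0.03, -0.04, -0.03 and -0.03. The richest quintile was thus near the 3 middle ones, and the poorest stood apart. After correction of each library for GC, Nfix still passed in F1 minus mid-parent and in F1 minus B6. Nfic passed in none of the 3 F1 comparisons (adjusted p = 0.152 against B6, 0.0618 against 129 and 0.0701 against the mid-parent). This correction also removed the overall offset of each library, as median-of-ratios rescaling does without GC. In F1 minus B6, Nfic was -0.109 with the correction and -0.112 with rescaling. In F1 minus mid-parent it was -0.129 and -0.135, and neither comparison passed with rescaling. F1 minus 129 did pass with rescaling (adjusted p = 0.0481). The part of GC alone was not tested.

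Progenitor and fibroblast markers were lower for 4 of the 10 tested in F1 minus B6, for 7 in F1 minus 129 and for 8 in F1 minus mid-parent, and higher for 0 in each. Of all genes, 20.2%, 15.7% and 14.8% were called lower in these 3 comparisons, and 11.0%, 12.0% and 8.35% higher. Smooth muscle markers were lower for 6 of the 9 tested and higher for 0 in F1 minus B6, lower for 2 and higher for 3 in F1 minus 129, and lower for 5 and higher for 1 in F1 minus mid-parent. Their part in the levels of Nfix and Nfic was not tested.

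Nfib had 9.19, 9.13 and 10.2 RPKM in the F1 libraries, 10.9, 10.4 and 10.3 in 129, and 9.42, 9.79 and 9.64 in B6. The 129 libraries lay above all others, and F1 and B6 overlapped. The share of all genes with that pattern was not computed. Of all genes tested, 49.9% did not overlap between 129 and B6 and 44.5% did not between F1 and 129. The mean was 9.50 ± 0.595 RPKM in F1, 10.5 ± 0.305 in 129 and 9.62 ± 0.185 in B6 (SD, n = 3 each). F1 minus 129 was -0.14 (SE 0.05, 95% interval -0.24 to -0.03) and did not pass (adjusted p = 0.0614). It passed without F1 replicate 3, the highest of that group (-0.18, adjusted p = 0.0209). F1 minus B6 was -0.02 (95% interval -0.12 to 0.09, adjusted p = 0.813), and its sign turned with rescaling. F1 minus mid-parent was -0.08 (adjusted p = 0.216).

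Nfia had 7.78, 7.02 and 8.01 RPKM in the F1 libraries, 8.15, 8.35 and 7.44 in 129, and 6.80, 7.67 and 6.97 in B6. All 3 groups overlapped. The mean was 7.60 ± 0.516 RPKM in F1, 7.98 ± 0.481 in 129 and 7.15 ± 0.462 in B6 (SD, n = 3 each). F1 minus B6 was 0.08 (95% interval -0.06 to 0.22, adjusted p = 0.370), F1 minus 129 was -0.06 (-0.20 to 0.08, adjusted p = 0.513) and F1 minus mid-parent was 0.01 (-0.11 to 0.13, adjusted p = 0.934). Nfia passed in none of the alternatives tried for these 3 comparisons. A moderated F-test over the 3 groups passed for Nfix (adjusted p = 0.00541) and Nfic (adjusted p = 0.0352), and not for Nfib (adjusted p = 0.0704) or Nfia (adjusted p = 0.192).

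**Figure D2:**
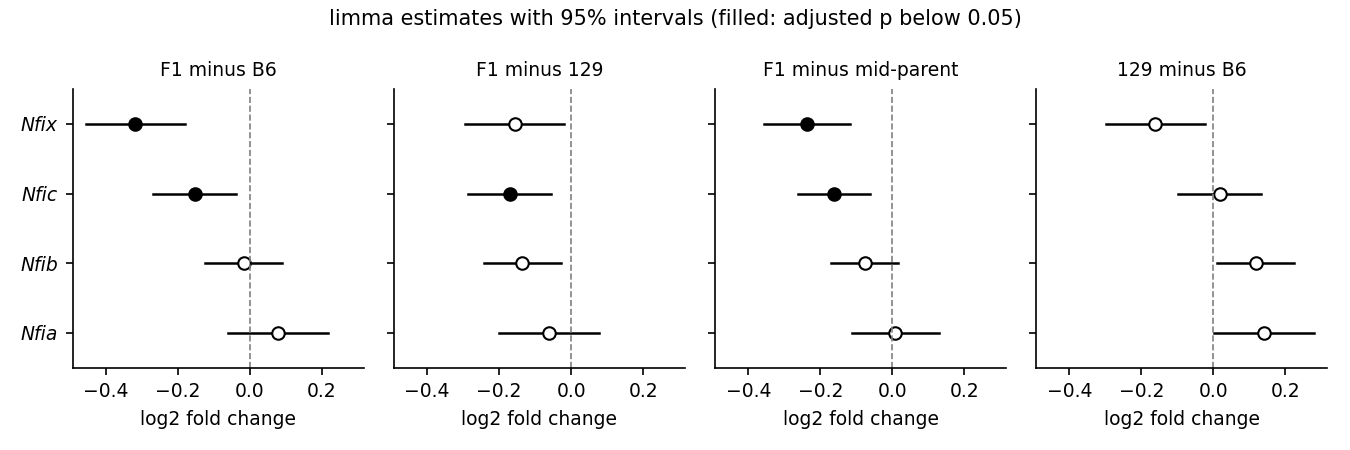
limma log2 fold changes on the log2(RPKM + 1) scale for each NFI gene, with 95% intervals as lines and filled points where the adjusted p is below 0.05. Nfix (-0.32 in F1 minus B6) and Nfic are filled in the F1 comparisons, Nfix not in F1 minus 129, and no gene is filled in 129 minus B6.

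Between the parental strains, 0 of 4 members passed in 129 minus B6, where 37.5% of all genes did. Unadjusted, the p was below 0.05 for Nfia (0.0482), Nfib (0.0342) and Nfix (0.0250). Nfia averaged 1.12-fold higher in 129 (log2 difference 0.14, 95% interval 0.00 to 0.28, adjusted p = 0.105). Nfib was 0.12 higher in 129 (interval 0.01 to 0.22, adjusted p = 0.0798) and Nfix 0.16 lower (log2 fold change -0.16, interval -0.30 to -0.02, adjusted p = 0.0624). Nfib and Nfix did not overlap between these strains, a pattern that 49.9% of all genes tested had. Nfic was within 0.02 of equal (interval -0.10 to 0.13). The call changed for Nfia without B6 replicate 2 (adjusted p = 0.0445), for Nfib without F1 replicate 3 (adjusted p = 0.0477) and for Nfix without B6 replicate 1 (adjusted p = 0.0448) or F1 replicate 1 (adjusted p = 0.0467). Without B6 replicate 2, the highest library, Nfix in 129 minus B6 was -0.10 (adjusted p = 0.183). In the same libraries Ucp1 had 52.3, 50.6 and 54.2 RPKM in F1, 60.5, 64.4 and 63.0 in 129, and 9.39, 10.7 and 9.51 in B6.

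The shares of the members within the family were described without a test. Nfix made up 39.4% ± 1.21 of the summed RPKM of the 4 genes in F1, 39.6% ± 0.445 in 129 and 43.9% ± 1.03 in B6 (SD, n = 3 each). Nfia made up 14.4% ± 0.960 in F1, 13.6% ± 0.395 in 129 and 11.99% ± 0.0901 in B6, and Nfib 18.01% ± 0.496 in F1, 17.97% ± 0.706 in 129 and 16.2% ± 0.717 in B6. Nfic held 28.2% ± 0.358 in F1, 28.8% ± 0.781 in 129 and 27.96% ± 0.539 in B6. Every B6 library had a higher share of Nfix than every F1 and 129 library (38.2% to 40.6% in F1, 39.3% to 40.2% in 129 and 43.0% to 45.0% in B6). The sum itself was 52.7 ± 2.36 RPKM in F1, 58.6 ± 1.95 in 129 and 59.6 ± 3.65 in B6. All F1 sums (50.6 to 55.3) lay below all parental sums (56.5 to 63.8). Nfix and Nfic hold most of the sum and each lay below all parental libraries in F1, whereas Nfia did not. The sum is therefore no separate result. How often sums or shares of other genes separate the groups like this was not computed.

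A ratio of 2 genes within a library does not depend on how the library was scaled. Nfia over Nfix was 0.331 to 0.402 in F1, 0.328 to 0.351 in 129 and 0.267 to 0.277 in B6. The log2 ratio was 0.42 higher in F1 than in B6 and 0.33 higher in 129 than in B6, without overlap in either. Nfib over Nfix was 0.430 to 0.475 in F1, 0.436 to 0.468 in 129 and 0.341 to 0.383 in B6, a log2 difference of 0.31 for F1 minus B6 and 0.30 for 129 minus B6. Nfic over Nfix was 0.702 to 0.741 in F1, 0.708 to 0.754 in 129 and 0.613 to 0.664 in B6. F1 and 129 thus overlapped in all 3 ratios to Nfix, and B6 lay below both. The exact two-sided permutation p was 0.1 for each ratio to Nfix in F1 minus B6 and in 129 minus B6, the smallest that 3 libraries against 3 allow, and 0.2 after adjustment over 18 comparisons of 6 ratios, so none could pass. All 3 ratios hold Nfix, whose RPKM was itself highest in B6, and the same ratios over other genes were not computed.

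**Figure D3:**
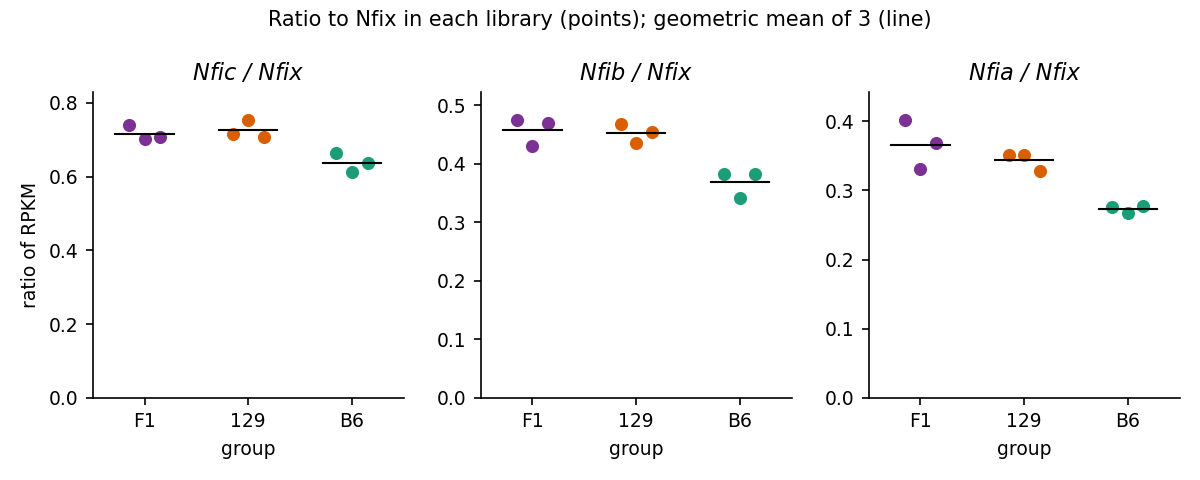
RPKM of Nfic, Nfib and Nfia over that of Nfix within each F1, 129 and B6 library (points), with the geometric mean of 3 as a line and axes from 0. F1 and 129 points overlap in each panel (Nfia over Nfix 0.331 to 0.402 in F1 and 0.328 to 0.351 in 129), and the B6 points lie below (0.267 to 0.277).

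By Pearson correlation of log2(RPKM + 1) over the 9 libraries, the genes most like Nfix were Cers6, a ceramide synthase (0.969), Bace1, a membrane protease (0.968), and Eif4g3, a translation initiation factor (0.962). For Nfic they were Prrc2a (0.964), Rere (0.963) and Plk1, a mitotic kinase (0.962). For Nfib they were Arhgap17 (0.969), Ankib1 (0.961) and Maml1, a coactivator of Notch signalling (0.935). For Nfia they were Vezf1 (0.917), Tbl1xr1 and Smtnl2 (0.899 each). A correlation of at least 0.9 was found with 101 genes for Nfix, 44 for Nfic, 14 for Nfib and 1 for Nfia. These values are a description, since the 9 points fall into 3 groups and share depth and scaling.

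In the genome, Nfia and Nfib stood among few expressed genes, and Nfic and Nfix among many. Within 1 Mb, 3 genes near Nfia, 4 near Nfib, 54 near Nfic and 46 near Nfix were tested. Near Nfix, 13 were lower and 3 higher in F1 minus B6, where 20.2% of all genes were lower and 11.0% higher. There were 5 lower and 10 higher in F1 minus 129 (15.7% and 12.0% of all genes), 5 lower and 3 higher in F1 minus mid-parent (14.8% and 8.35%) and 17 lower and 4 higher in 129 minus B6 (21.7% and 15.9%). Near Nfic, 13 were lower and 1 higher in F1 minus B6, 7 lower and 2 higher in F1 minus 129, 7 lower and 3 higher in F1 minus mid-parent, and 5 lower and 4 higher in 129 minus B6. The tested genes next to Nfix, Trmt1 and Dand5, had F1 minus mid-parent values of 0.03 (adjusted p = 0.737) and 0.01 (adjusted p = 0.938). Those next to Nfic, Dohh and Ncln, had 0.00 (adjusted p = 0.992) and -0.07 (adjusted p = 0.225). Dand5 was lower in 129 than in B6 (-0.23, adjusted p = 0.00993). Cyp2j9, the nearest tested gene before Nfia, starts outside the 1 Mb window. It was lower in 129 than in B6 (-0.52, adjusted p = 0.00242), while Tm2d1 after Nfia was not called (-0.16, adjusted p = 0.116). Mpdz, before Nfib and also starting outside the window, was lower in 129 than in B6 (-0.31, adjusted p = 0.0015). Zdhhc21 after Nfib was not called (-0.02, adjusted p = 0.792).

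Of 24 tested regulators of brown and beige fat, 4 were higher and 3 lower in F1 minus mid-parent. That is 29.2%, near the 23.2% of all genes (8.35% higher and 14.8% lower, median log2 fold change 0.04, against -0.03 over all genes). Ebf2, a transcription factor of brown fat precursors, had 12.5 ± 0.811 RPKM in F1, 9.78 ± 0.213 in 129 and 9.34 ± 0.451 in B6, and rose by 0.35 in F1 over the mid-parent (adjusted p = 0.000526). Rxra, the dimer partner of PPARG, had 17.0 ± 0.107 RPKM in F1, 20.02 ± 0.304 in 129 and 21.4 ± 0.249 in B6 (F1 minus mid-parent -0.27, adjusted p = 0.000199). Its F1 libraries lay below all parental ones, as those of Nfix and Nfic did, although Nfix did not pass in F1 minus 129. In F1 minus 129, 9 regulators were higher and 3 lower, where 12.0% of all genes were called higher. In 129 minus B6, 1 was higher and 8 lower, where 15.9% of all genes were called higher and 21.7% lower, among them the coactivators Ppargc1a (-0.59, adjusted p = 8.53e-05) and Ppargc1b (-0.44, adjusted p = 0.00162), the lipid sensor Ppara (-0.41, adjusted p = 0.00120) and Ehmt1, a histone methyltransferase of the PRDM16 complex (-0.37, adjusted p = 6.60e-05).

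The brown fat programme, genes of heat production and its fuel supply that include known NFIA targets, was mostly higher in F1. Of 15 tested, 10 were higher and 1 lower in F1 minus mid-parent, where 8.35% of all genes were called higher. Cidea, which coats lipid droplets of brown fat cells, had 20.2 ± 1.65 RPKM in F1, 12.7 ± 1.38 in 129 and 6.93 ± 0.547 in B6 (F1 minus mid-parent 1.03, adjusted p = 2.63e-05). Cox8b, a subunit of cytochrome c oxidase, had 45.3 ± 3.05 RPKM in F1, 21.1 ± 1.19 in 129 and 39.6 ± 1.34 in B6 (0.63, adjusted p = 3.82e-05). Ucp1 was higher in F1 than the mid-parent of log2 means (1.02, adjusted p = 1.75e-06) and lower in F1 than in 129 (-0.25, adjusted p = 0.00557). On the RPKM scale the excess was smaller, with an F1 mean of 52.4 against a parental mean of 36.3, or 1.44-fold. Adrb3, the beta-3 adrenergic receptor, had 45.5 ± 1.84 RPKM in F1, 36.5 ± 0.714 in 129 and 54.0 ± 1.03 in B6, and its F1 level did not differ detectably from the mid-parent (0.03, adjusted p = 0.541). The list split in 129 minus B6, with 4 higher and 7 lower, where 15.9% of all genes were called higher and 21.7% lower.

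Of 18 general adipocyte genes tested, 2 were higher and 3 lower in F1 minus mid-parent (27.8%, against 23.2% of all genes), and 3 higher and 6 lower in 129 minus B6, where 37.5% of all genes were called. Pck1, an enzyme of glycerol synthesis, had 16.6 ± 0.907 RPKM in F1, 16.9 ± 1.09 in 129 and 7.14 ± 0.329 in B6. Retn, which encodes resistin, had 219 ± 23.9 RPKM in F1, 147 ± 8.38 in 129 and 309 ± 12.5 in B6. Of 8 tested inflammatory genes of adipocytes, 4 were lower and 0 higher in F1 minus mid-parent, where 14.8% of all genes were called lower. In 129 minus B6, 1 was lower and 0 higher, where 37.5% of all genes were called. Icam1, a cell adhesion molecule, had 1.78 ± 0.262 RPKM in F1, 2.29 ± 0.332 in 129 and 5.15 ± 0.173 in B6 (F1 minus mid-parent -0.70, adjusted p = 0.000166).

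Of 7 tested glial genes tied to NFI factors in the nervous system, 2 were higher and 4 lower in 129 minus B6. Of all genes, 15.9% were called higher and 21.7% lower there. Slc1a3, a glutamate transporter, had 15.2 ± 0.468 RPKM in F1, 11.2 ± 0.298 in 129 and 16.7 ± 0.713 in B6. Apcdd1, an inhibitor of Wnt signalling and an NFIA target in the developing spinal cord, had 16.3 ± 0.600 RPKM in F1, 15.8 ± 0.808 in 129 and 20.8 ± 0.755 in B6. Zcchc24, another target there, had 32.5 ± 1.17 RPKM in F1, 40.2 ± 1.87 in 129 and 31.1 ± 1.44 in B6, so these 2 targets differed between the parents in opposite directions (129 minus B6 -0.37 and 0.36, adjusted p = 0.000157 and 0.000214).

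**Figure D4:**
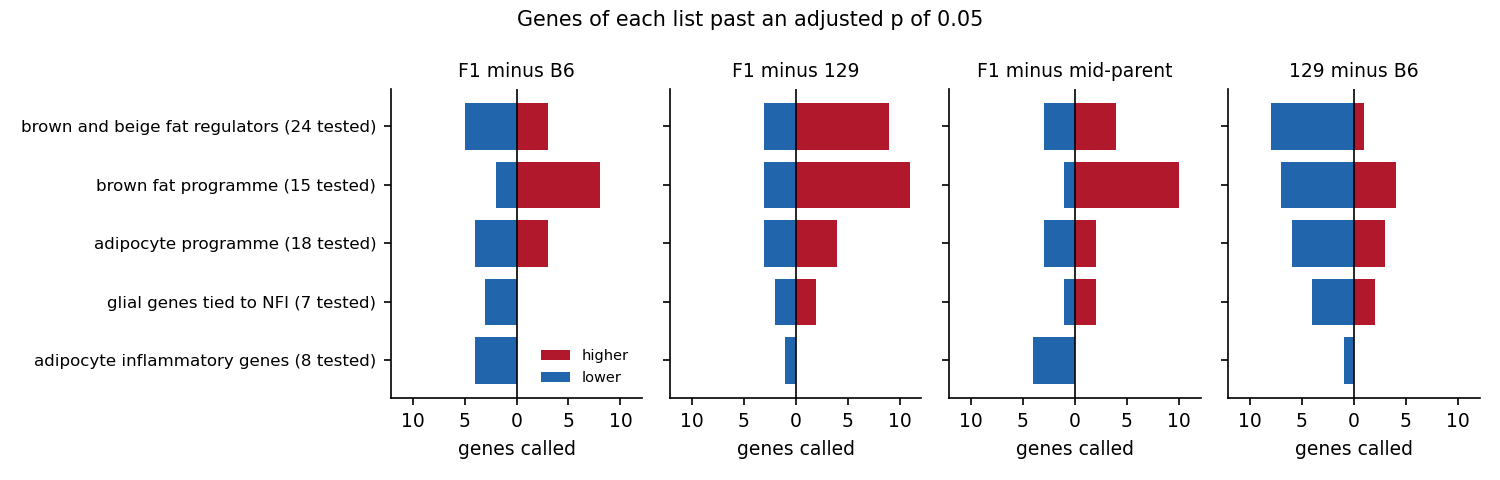
Number of genes of each list past an adjusted p of 0.05 in limma, higher to the right and lower to the left, in 4 comparisons that share libraries. The brown fat programme has 10 higher and 1 lower of 15 tested in F1 minus mid-parent, and the regulators 1 higher and 8 lower of 24 in 129 minus B6.

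Promoters of RefSeq genes (build GRCm38.p6, 250 bases before to 50 after the start) were searched for the NFI palindrome and for a single arm of it, TTGGC or its complement GCCAA. The arm was found in 46.7% of 32851 promoters and the palindrome in 12 of them, or 0.0365%. Among promoters of genes tested, 49.8% held the arm. It was in 7 of 12 promoters of the brown fat programme (58.3%), 11 of 23 of the regulators (47.8%), 8 of 15 of the adipocyte genes (53.3%), 3 of 5 of the glial genes and 0 of 5 of the inflammatory genes. The palindrome was in 0 promoters of these lists. Entries were found for Nfia (1 promoter), Nfic (1) and Nfix (4), and 3 of the 4 of Nfix held the arm, whereas those of Nfia and Nfic did not. The Ucp1 promoter held 2 arms, 183 and 105 bases before the start. The stretch around them is shown because Ucp1 is the defining gene of beige cells, at chr8:83290153-83290259 on the plus strand, with the arms in capitals.
Ucp1: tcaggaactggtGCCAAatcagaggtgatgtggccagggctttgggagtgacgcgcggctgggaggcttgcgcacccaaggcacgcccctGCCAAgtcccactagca
A match of 5 letters is a description of this sequence and not evidence of binding, and the reference holds the letters of 1 strain.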

How the data were processed

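The authors deposited RPKM values, 1 per gene and library, for 9 libraries of poly(A) RNA. Per the submitters' processing notes, STAR and build mm9 were used. No source used here gives the read counter, its strand setting or the annotation release. The deposited RPKM kept steps of 1 read, so reads were recovered: with a tolerance of 0.1 read, every non-zero value was whole. Columns with no name, 5 in all, held stray text and were not used. Replicate files differed by 3.83 to 15.1 times counting error (chi-square over its degrees of freedom), so none was a copy.

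The 11542 genes that reached 1 RPKM in 3 or more libraries were fitted in limma 3.58.1 under R 4.3.3 on log2(RPKM + 1), with 1 mean per group, a mean-variance trend and a shared spread. This scale understates changes of low genes. P-values were two-sided and Benjamini-Hochberg adjusted over these genes, and 0.05 was the threshold. Alternatives were another pseudocount, other filters, rescaling, sample weights, a replicate block, 2 groups only, voom on the recovered reads, each library left out and, added after the data were seen, a GC correction and a mid-parent on the RPKM scale. The procedure was tested on simulated data, where recovery was required only of changes larger than any seen in the NFI genes. Recovery of changes as small as theirs was not required. Voom on recovered reads called 4277 genes in 129 minus B6, 3911 in F1 minus B6, 3475 in F1 minus 129 and 3126 in F1 minus mid-parent.

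The members and the gene lists were chosen with earlier results of these data known. The genes named are the members and Ucp1, and from each list the 4 with the smallest p in 129 minus B6 and up to 2 called in F1 minus mid-parent. The 3 genes most like each member and the nearest tested genes were added, both without predicted genes, clones and small RNAs. Of those, the ones that carry a comparison are printed. GC content came from GENCODE transcripts for 99.3% of genes tested, and sequences from GENCODE (GRCm38) and RefSeq (GRCm38.p6). Lists were described by counts and medians, with no set test.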

Additional observations from a re-analysis of the deposited data

How the results depend on the processing

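No call of Nfix in F1 minus B6 was lost in any of the 18 alternatives. The number of NFI genes called in 129 minus B6 (0) became 1 with median-of-ratios rescaling (Nfib), with the GC correction (Nfib) and with voom on recovered reads (Nfix), 2 with sample weights (Nfia and Nfib), and 0 to 1 with each library left out. In F1 minus B6 (2) it became 1 with no filter, with rescaling, with 2 groups only and with the GC correction, each time Nfix, and 1 to 2 with each library left out. In F1 minus 129 (1) it became 0 with no filter, stayed 1 with the GC correction, where Nfib passed in place of Nfic, and became 2 with sample weights, with 2 groups only and with voom, and 0 to 2 with each library left out. In F1 minus mid-parent (2) it became 1 with rescaling and with the GC correction, each time Nfix, and 0 to 2 with each library left out. The cause of these shifts was not tested.

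Whether replicate numbers pair the libraries could not be decided. Correlations of deviations from the group means were -0.19 to 0.22 for same-numbered libraries and -0.20 to 0.23 for the others. Between B6 and 129 they were 0.07 to 0.22 for same-numbered libraries and -0.17 to 0.05 for the others. Deviations from a mean of 3 libraries are not independent, and the labels do not say what the numbers stand for. With the replicate number as a block, 1 NFI gene was called in 129 minus B6 (Nfix, adjusted p = 0.0424), 2 in F1 minus B6, 1 in F1 minus 129 and 2 in F1 minus mid-parent.

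Signs turned only for values that did not pass. Nfib in F1 minus B6 became 0.023 with rescaling and 0.016 with the GC correction, and -0.064 to 0.0080 with each library left out. With each library left out, Nfic in 129 minus B6 ran from -0.025 to 0.055 and Nfia in F1 minus mid-parent from -0.026 to 0.058. The log2 ratio of Nfia over Nfib in 129 minus B6 ran from -0.014 to 0.069. In F1 minus 129, Nfib over Nfic ran from -0.023 to 0.066, Nfib over Nfix from -0.013 to 0.059 and Nfic over Nfix from -0.042 to 0.0097. The order of the 4 levels held with a pseudocount in the ratio and with each library left out, and was not run with the GC correction.

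Rescaling and the GC correction also evened the split of all calls. In F1 minus B6, 35.3% of called genes were higher, against 49.8% after rescaling and 51.2% after the GC correction, and in F1 minus mid-parent 36.0%, against 49.1% and 50.2%. Rescaling moved the median of all genes by 0.04 or less. The count of lower progenitor and fibroblast markers in F1 minus mid-parent (8) ran from 5 to 9, and that of higher brown fat genes (10) from 9 to 10. With 3 libraries a group, no single-gene exact test can go below 0.1.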
